A study of Homo sapiens with 12 samples.

Results

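The genes described here make or sense the prostaglandins and leukotrienes, signalling lipids cut from arachidonic acid. They are the 10 rows of the deposited tables, among 78932, whose symbol is PTGS1, PTGS2, PTGES, PLA2G4A, ALOX5, ALOX5AP, LTA4H, LTC4S, PTGER2 or PTGER4, chosen by name and not by any measured value. All 10 were found, and 8 had enough counts to be tested, while PTGES and LTC4S did not and are described by their counts. The study sequenced mRNA from THP-1, an established line of human monocytic leukaemia cells, as 12 libraries that fall into 4 groups of 3. The CEL group received LPS and ATP with CsA (cyclosporin A, a calcineurin inhibitor), eltrombopag (a thrombopoietin receptor agonist that also binds iron) and luspatercept (a ligand trap built on an activin receptor). The CE group received LPS and ATP with CsA and eltrombopag, and the LPS group received LPS and ATP alone, the model of pyroptosis, an inflammatory form of cell death. The NC group was the normal control and received none of these agents. Each group is the same cell line, so donor variation is not sampled, and neither doses nor times are stated in the labels.

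Phospholipase A2 enzymes free arachidonic acid from membranes, and the cytosolic form encoded by PLA2G4A does so when calcium rises. The cyclooxygenases, PTGS1 (constitutive in many tissues) and PTGS2 (induced by inflammatory stimuli), turn it into prostaglandin H2, which PTGES converts to prostaglandin E2. PTGER2 and PTGER4 encode the EP2 and EP4 receptors for prostaglandin E2, both coupled to cyclic AMP. On the other branch, 5-lipoxygenase (ALOX5) with its membrane helper FLAP (ALOX5AP) makes leukotriene A4, from which LTA4H makes leukotriene B4, an attractant of neutrophils, and LTC4S makes leukotriene C4. Monocytes and macrophages are known sources of both classes of lipid.

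The promoters of PTGS2, PTGS1 and ALOX5AP, whose level in the LPS group stood furthest above NC among these genes, are given as the 240 bases from 250 to 11 bases before the RefSeq start, written 5′ to 3′ on the gene's strand (RefSeq, GRCh38.p14). Capitals mark short motifs found by a letter search on both strands. PTGS2 is at chr1:186680434-186680673, minus strand. PTGS1 has 2 annotated starts, with windows at chr9:122370283-122370522 and chr9:122375052-122375291, plus strand. ALOX5AP is at chr13:30713235-30713474, plus strand.
PTGS2: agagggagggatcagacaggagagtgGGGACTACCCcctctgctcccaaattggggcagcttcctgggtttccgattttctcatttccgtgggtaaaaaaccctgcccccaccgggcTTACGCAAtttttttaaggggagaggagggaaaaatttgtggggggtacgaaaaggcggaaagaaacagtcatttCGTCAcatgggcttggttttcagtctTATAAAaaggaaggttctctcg
PTGS1, first start: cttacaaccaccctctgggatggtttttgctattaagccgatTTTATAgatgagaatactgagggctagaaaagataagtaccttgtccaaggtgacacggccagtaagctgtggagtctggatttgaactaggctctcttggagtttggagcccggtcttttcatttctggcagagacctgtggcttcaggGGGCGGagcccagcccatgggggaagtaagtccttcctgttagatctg
PTGS1, second start: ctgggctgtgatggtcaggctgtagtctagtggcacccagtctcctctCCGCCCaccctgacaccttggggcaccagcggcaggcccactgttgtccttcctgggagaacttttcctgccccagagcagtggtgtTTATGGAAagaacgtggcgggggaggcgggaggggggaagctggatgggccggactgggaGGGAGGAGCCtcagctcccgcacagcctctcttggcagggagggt
ALOX5AP: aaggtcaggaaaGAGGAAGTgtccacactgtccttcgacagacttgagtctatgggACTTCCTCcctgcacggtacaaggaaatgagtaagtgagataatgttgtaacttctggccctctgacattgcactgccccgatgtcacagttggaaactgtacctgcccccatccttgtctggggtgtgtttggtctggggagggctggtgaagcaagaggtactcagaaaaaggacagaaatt

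In the PTGS2 window the capitals mark, from left to right, GGGACTACCC (a match to the loose kappa B pattern GGGANNNNCC, 224 bases before the start), TTACGCAA (the C/EBP pattern TTNCNNAA, 133 bases before), CGTCA (a core of the cyclic AMP response element, 58 bases before) and TATAAA (the TATA box, 32 bases before). TTACGCAA matches its pattern on both strands, and no other printed matches overlap. The first PTGS1 window holds TTTATA, which is TATAAA read on the other strand, at 208 bases and a GC box (GGGCGG) at 58 bases. The second holds a GC box on the other strand, a C/EBP match on the other strand and a loose kappa B match at 55 bases. The ALOX5AP window holds the PU.1 motif GAGGAAGT at 238 bases and again on the other strand at 194 bases. Of 35116 RefSeq promoter windows of the same length, TATAAA was found in 10.6%, CGTCA in 20.5%, TTNCNNAA in 32.5%, GGGANNNNCC in 21.6%, GGGCGG in 41.4% and GAGGAAGT in 2.02%. RefSeq windows were at hand for 9 of the 10 genes. The motifs were chosen with these letters in view, and a match is a description of the letters only.

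Library totals were 17737213 to 23183429 counts. Ribosomal RNA took 11.6% of TPM (a level per transcript length, scaled to a fixed sum in each library) in LPS 1 and 12.7% in NC 3, against 1.06% to 1.90% in the other libraries, which lowers the TPM of every other gene in those libraries. CE 2 stood furthest from its group mean, by a median of 0.114 log2 units over 7460 genes, against 0.0335 to 0.0911 in the others. Of 10 monocyte markers, 9 averaged over 1 CPM in each group, where CPM are counts scaled to library size with TMM factors. Their sum was 790 to 835 CPM in CEL, 811 to 988 in CE, 1056 to 1094 in LPS and 901 to 929 in NC. Single markers moved far more than this sum. In LPS against NC, CD14 was 49.9-fold, ITGAM 8.10-fold, CSF1R 6.42-fold, LYN 5.33-fold, CD68 2.23-fold and FCGR1A 1.96-fold higher, while LYZ was 4.19-fold lower. CD33, SPI1 and CEBPA had an edgeR adjusted p over 0.05 there. In CE against LPS, CD14, FCGR1A and LYZ were 6.83-fold, 5.30-fold and 5.12-fold lower, while CD33, CD68 and LYN were at most 1.26-fold higher. In CEL against LPS, CD14, LYZ and FCGR1A were 16.3-fold, 6.99-fold and 8.63-fold lower, while CD33, CD68 and LYN were at most 1.24-fold higher. The part of these moves in the results was not tested. CD14, the LPS co-receptor, averaged 0.872 CPM in NC. Summed markers were at most 1.20 CPM for mast cells and basophils, at most 1.70 CPM for platelets and at most 1.45 CPM for fibroblasts, epithelium and endothelium. The lymphocyte sum was 6.88 to 7.36 CPM in CEL, 18.5 to 19.5 in CE, 5.24 to 5.91 in LPS and 15.5 to 18.0 in NC. It was nearly all NCAM1, with CD3D and CD3E at or near 0. The neutrophil and eosinophil sum, mostly CXCR2, was 4.76 to 8.42 CPM in the CEL, CE and LPS groups and 42.0 to 43.7 CPM in NC, and the part of either sum in the results was not tested. All libraries came from THP-1. In bulk RNA, fewer cells that express a gene and less RNA per cell cannot be told apart.

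In the comparison of LPS with NC, which asks what the pyroptosis model changes, 4 of the 8 tested genes rose and 1 fell, where 45.9% of all 14065 tested genes changed, 22.4% rising and 23.5% falling. PTGS2, ALOX5AP, PTGS1 and ALOX5 rose and LTA4H fell. These verbs stand for an edgeR quasi-likelihood test with a Benjamini-Hochberg adjusted p under 0.05 over all tested genes. LPS and NC libraries lay fully apart for 6 of the 8, against 62.5% of all tested genes. The median log2 change was 0.99 over the 8 genes and -0.01 over all tested genes. Over all genes, 3152 rose and 3306 fell. With upper quartile factors 2604 rose and 4387 fell, and the median gene shifted by -0.11. On log2(TPM + 1) in limma 2070 rose and 893 fell, and the median gene shifted by 0.14.

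With CsA and eltrombopag added, CE against LPS, 5 of the 8 rose (PTGS1, PLA2G4A, ALOX5, ALOX5AP and LTA4H) and 1 fell (PTGS2), where 49.6% of all tested genes changed, 28.8% rising and 20.7% falling. The groups did not overlap for 6 of the 8, against 54.6% of all tested genes. The median was 0.31 over the 8 genes and 0.08 over all tested genes. The split over all genes was 4057 rising and 2915 falling here, but 2945 and 4000 with upper quartile factors, which shifted the median gene by -0.17, and 3040 and 3833 with library size alone, which shifted it by -0.15. With upper quartile factors, PLA2G4A and LTA4H no longer passed. In CEL against LPS, with all 3 drugs, 3 rose (PTGS1, PLA2G4A and ALOX5AP) and PTGS2 fell, where 55.9% of all tested genes changed, 28.7% rising and 27.2% falling. The groups did not overlap for 4 of the 8, against 65.5% of all tested genes. With upper quartile factors, and again with no filter, 1 of them rose (PTGS1) and 2 fell (PTGS2 and PTGER2). Over all genes 4039 rose and 3828 fell, but 3294 and 4590 with upper quartile factors, which shifted the median gene by -0.13. The medians were 0.16 and -0.03. Both comparisons share the LPS libraries with each other and with LPS against NC, and the CE libraries serve again in CEL against CE below. Opposite changes of a gene in comparisons that share a group are therefore not independent.

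Adding luspatercept, CEL against CE, was followed by a change in 1 of the 8, ALOX5, which fell, where 23.6% of all tested genes changed, 8.78% rising and 14.8% falling. The groups did not overlap for 3 of the 8, against 34.7% of all tested genes. The median was -0.14 over the 8 genes and -0.09 over all tested genes. Over all genes 1235 rose and 2086 fell, but 1581 and 1756 with library size alone, 463 and 2075 with no filter, and 1685 and 1367 without CE 1. The count of 1 was not steady. Without CE 2, 5 of the 8 passed, PTGS1 and PTGER4 higher and ALOX5, ALOX5AP and LTA4H lower in CEL, and without CE 1 it was 3. It was 2 with RLE factors, upper quartile factors, no filter or DESeq2, and 0 with either limma fit. Against NC, the CE group had 5 of 8 higher and 0 lower, where 64% of all tested genes changed, 34.6% rising and 29.4% falling. The CEL group had 6 higher and 1 lower than NC, where 67% changed, 34% rising and 33% falling. The groups did not overlap for 5 of the 8 in CE against NC (67.1% of all tested genes) and for 7 in CEL against NC (75.8% of all tested genes). Over all genes, 4869 rose and 4139 fell in CE against NC, but 3571 and 5646 with upper quartile factors and 4165 and 2070 on log2(TPM + 1) in limma. In CEL against NC 4778 rose and 4647 fell, but 3828 and 5805 with upper quartile factors and 4696 and 2477 in limma.

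**Figure D1:**
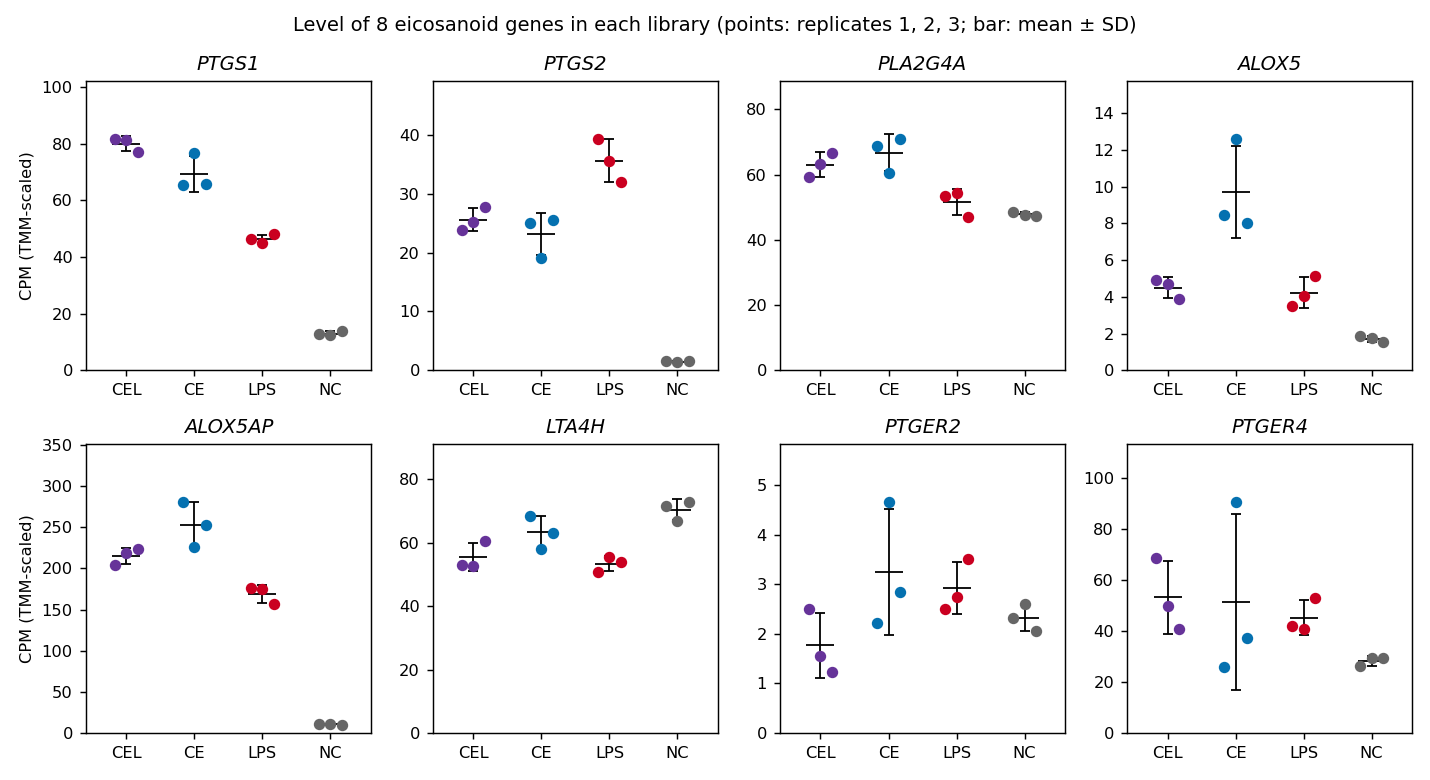
Level of the 8 tested genes in each library, in TMM-scaled CPM (linear axis from 0, a separate scale for each gene), for the CEL, CE, LPS and NC groups from left to right. Points are libraries 1, 2 and 3 and bars are the mean ± SD; ALOX5AP, PTGS1 and PTGS2 lie far above NC in every treated library, and PTGER4 in CE spreads from 26.1 to 90.9 CPM.

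**Figure D2:**
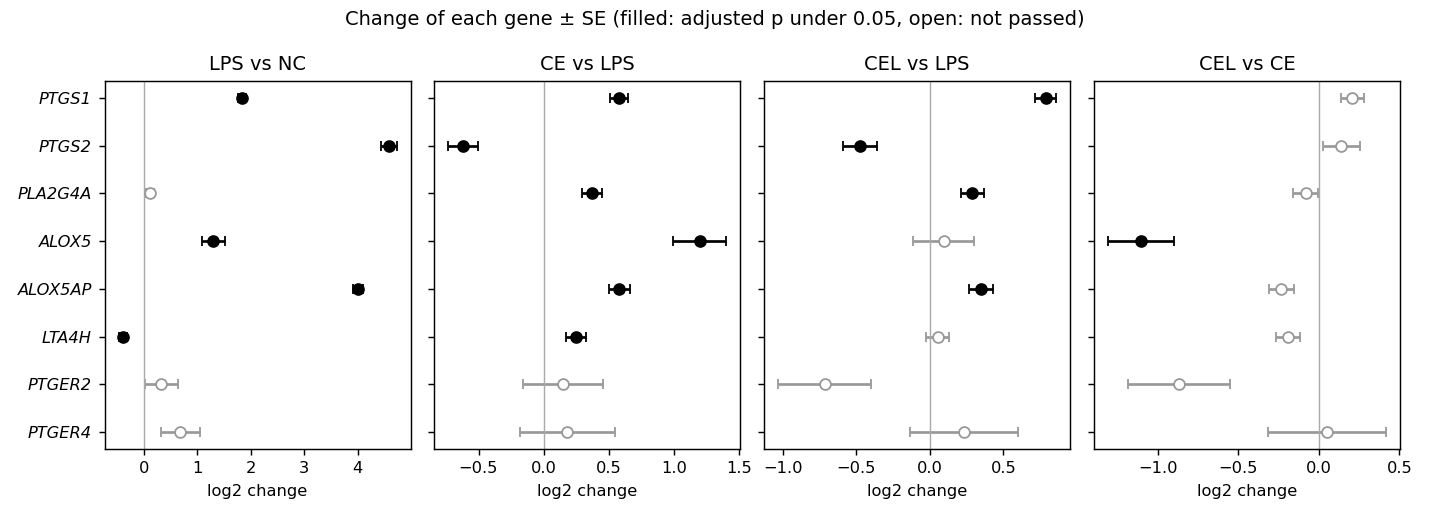
Log2 change ± SE of the 8 tested genes in 4 comparisons, with zero as a grey line and a separate horizontal scale in each panel. Filled points passed the test and open ones did not: 5 passed for LPS against NC, 6 for CE against LPS, 4 for CEL against LPS and 1, ALOX5, for CEL against CE.

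Per length, ALOX5AP was the most abundant of the 10 genes in the treated groups, at 397 ± 2.70 TPM in CEL, 445 ± 24.3 in CE and 294 ± 45.5 in LPS, against 16.6 ± 4.03 in NC (SD, n = 3 each). In NC the highest was LTA4H at 39.2 ± 6.73 TPM, then PLA2G4A at 19.8 ± 4.04 and ALOX5AP, whose ranges of 15.1 to 22.3 and 12.0 to 19.5 TPM overlapped. In CEL the order below ALOX5AP was LTA4H at 36.4 TPM, PLA2G4A at 30.6, PTGS1 at 24.8, PTGER4 at 21.9, PTGS2 at 7.81, ALOX5 at 3.21, PTGER2 at 0.917 and LTC4S at 0.217, with PTGES at 0. Of these neighbours in CEL, PTGS1 and PTGER4 overlapped, at 22.9 to 26.7 and 16.0 to 29.2 TPM. ALOX5, the enzyme, was thus far below ALOX5AP, its helper, in every group. In NC 3, LTA4H had 73.0 CPM and 31.5 TPM, against 71.6 CPM and 44.1 TPM in NC 1. In LPS 1, ALOX5AP had 176 CPM and 243 TPM, against 175 CPM and 328 TPM in LPS 2. These gaps in TPM were wider than the ribosomal RNA share given above, and their cause was not tested.

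PLA2G4A, which frees arachidonic acid, lies on chromosome 1 at 186828953-186988981 (GRCh38, plus strand), 148.5 kb from PTGS2 on the minus strand. It had 59.2, 63.3 and 66.7 CPM in CEL libraries 1 to 3, 68.8, 60.4 and 70.9 in CE, 53.4, 54.2 and 47.1 in LPS, and 48.5, 47.7 and 47.2 in NC. CEL and CE lay above LPS and NC with no overlap, while LPS and NC overlapped. LPS against NC did not pass, at a log2 change of 0.11 ± 0.08 (approximate SE; edgeR adjusted p = 0.282), and with upper quartile factors the estimate was -0.00. It rose 1.29-fold in CE against LPS (0.37 ± 0.08, edgeR adjusted p = 0.00177, 0.16 to 0.59 within the 3 labelled batches) and 1.22-fold in CEL against LPS (0.29 ± 0.08, edgeR adjusted p = 0.0072, 0.15 to 0.50 within batches). The CE call was lost with upper quartile factors and on log TPM (adjusted p 0.000175 to 0.113 over 21 alternatives). The CEL call was lost in those settings, with no filter and without NC 3 and LPS 1 together (adjusted p 0.00143 to 0.331).

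The cyclooxygenases both rose in the model and then parted. PTGS2 lies on chromosome 1 at 186671791-186680427. It had 23.9, 25.3 and 27.7 CPM in CEL, 25.1, 19.2 and 25.5 in CE, 39.4, 35.7 and 32.0 in LPS, and 1.54, 1.42 and 1.48 in NC. Every LPS library lay above every CEL and CE library, and all of these lay far above NC. PTGS2 rose 24.0-fold in LPS against NC (4.59 ± 0.14, edgeR adjusted p = 2.84e-10, 4.43 to 4.68 within batches). It was 1.53-fold lower in CE than in LPS (-0.62 ± 0.12, edgeR adjusted p = 0.000875, -0.90 to -0.33 within batches) and 1.39-fold lower in CEL than in LPS (-0.48 ± 0.11, edgeR adjusted p = 0.00399, -0.72 to -0.21 within batches). The CEL call was lost on log TPM and without NC 3 and LPS 1 together (adjusted p 0.000185 to 0.104 over 21 alternatives). PTGS2 stood 17.3-fold above NC in CEL and 15.7-fold above NC in CE. PACERR, an RNA antisense to the PTGS2 promoter region, had at most 10.01 counts summed over a group.

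PTGS1 lies on chromosome 9 at 122370530-122395703, plus strand. It had 81.8, 81.3 and 77.0 CPM in CEL, 65.4, 76.7 and 65.7 in CE, 46.2, 45.0 and 48.0 in LPS, and 12.8, 12.3 and 13.8 in NC. The groups followed each other with no overlap, CEL highest and NC lowest. PTGS1 rose 3.58-fold in LPS against NC (1.84 ± 0.08, edgeR adjusted p = 3.53e-09, 1.80 to 1.87 within batches). It rose a further 1.49-fold in CE against LPS (0.58 ± 0.07, edgeR adjusted p = 4.33e-05, 0.45 to 0.77 within batches) and 1.73-fold in CEL against LPS (0.79 ± 0.07, edgeR adjusted p = 2.74e-06, 0.68 to 0.85 within batches). These calls stood in all 21 alternatives. CEL against CE did not pass (0.21 ± 0.07, adjusted p = 0.0587), but passed in 9 of 21 alternatives (adjusted p 0.00053 to 0.671), among them DESeq2, RLE factors and leaving out CEL 2, CE 1, CE 2, LPS 2 or NC 3.

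Because both genes are read in the same library, the ratio of their TPM shows the shift between them. PTGS1 over PTGS2 was 3.53, 3.22 and 2.81 in CEL, 2.52, 3.81 and 2.57 in CE, 1.04, 1.09 and 1.34 in LPS, and 9.33, 9.30 and 9.00 in NC. PTGS1 was thus the higher of the pair in every library, by little in LPS and by most in NC. CEL and CE lay between LPS and NC without overlapping either. The NC ratios rest on few PTGS2 counts, 37, 31 and 26 in NC 1, NC 2 and NC 3, and their narrow range is no measure of counting error. With 3 libraries against 3, the two-sided exact permutation p was 0.1, the smallest this design allows, for each comparison except CEL against CE, where it was 0.6. The mean log2 ratio differed by -3.00 for LPS against NC, 1.34 for CE against LPS and 1.46 for CEL against LPS.

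**Figure D3:**
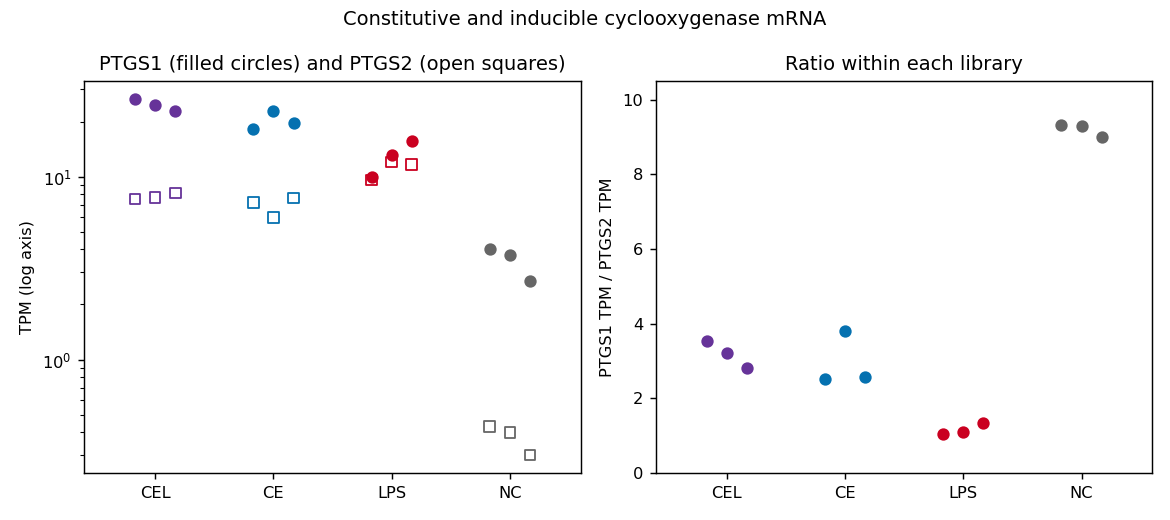
Left, TPM of PTGS1 (filled circles) and PTGS2 (open squares) in each library on a log axis; right, their ratio within each library on a linear axis, for CEL, CE, LPS and NC from left to right. The LPS libraries sit between 1.04 and 1.34, below the CEL and CE libraries, and the NC libraries sit between 9.00 and 9.33.

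PTGES, the inducible microsomal synthase of prostaglandin E2 on chromosome 9 at 129738331-129753047, was at the detection limit. It had 0 counts in CEL, 2 in CE, both in CE 2, 1 in LPS and 0 in NC, each summed over 3 libraries. A sum of 0 allows a level of up to 0.0486 CPM in CEL and 0.0472 CPM in NC (3 counts over the group, counting error only), and no fold is given. PTGES3, the abundant cytosolic synthase and co-chaperone, averaged 733 CPM in CEL, 664 in CE, 607 in LPS and 544 in NC. It rose 1.21-fold in CEL against LPS (edgeR adjusted p = 0.00229), 1.22-fold in CE against NC (edgeR adjusted p = 0.00133) and 1.35-fold in CEL against NC (edgeR adjusted p = 5.7e-05). LPS against NC, CE against LPS and CEL against CE did not pass, at adjusted p of 0.0506, 0.0951 and 0.117 in edgeR.

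Of the prostaglandin E2 receptors, PTGER4 was the more abundant. It lies on chromosome 5 at 40679498-40693735 and overlaps TTC33 on the opposite strand. PTGER4 had 68.8, 49.9 and 40.9 CPM in CEL, 26.1, 90.9 and 37.4 in CE, 42.0, 40.8 and 53.1 in LPS, and 26.1, 29.5 and 29.2 in NC. CEL and LPS lay above NC without overlap, and CE held both the highest and the lowest library of the 12. LPS against NC did not pass (0.68 ± 0.37, edgeR adjusted p = 0.162), although all LPS libraries lay above all NC libraries. It passed there without CE 2 (0.70, adjusted p = 0.00969) and with no filter (adjusted p 6.39e-08 to 0.349 over 21 alternatives). CEL against NC passed narrowly at 1.88-fold (0.91 ± 0.37, edgeR adjusted p = 0.0479, 0.49 to 1.40 within batches), a call lost in 13 of 21 alternatives (adjusted p 2.38e-11 to 0.136). Among those 13 were the replicate block (0.93, adjusted p = 0.0578) and leaving out CEL 1, CEL 2, LPS 1, LPS 3, NC 1, NC 2 or NC 3. CE against NC had a similar estimate, 0.86 ± 0.37, and narrowly did not pass (edgeR adjusted p = 0.0616). It passed without CE 1 (1.11, adjusted p = 0.00878) and with no filter (adjusted p 2.3e-10 to 0.446 over 21 alternatives).

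For CE against LPS the log2 change of PTGER4 was 0.18 ± 0.37 (edgeR adjusted p = 0.72), with -0.69, 1.15 and -0.50 within batches 1, 2 and 3, and without CE 2 it was -0.50 (adjusted p = 0.0664). For CEL against CE it was 0.05 ± 0.37 (adjusted p = 0.943), and 0.74 without CE 2 (adjusted p = 0.025, 0.025 to 1 over 21 alternatives). TTC33 had 6016 counts in CEL, 4979 in CE, 4195 in LPS and 4679 in NC, against 3349, 3194, 2914 and 1787 for PTGER4. No source used here states the strand setting of the counting, so reads from the overlap of the 2 genes cannot be told apart. The monocyte markers were mixed in the same group. CSF1R ranged from 29.9 to 132 CPM in CE, ITGAM from 12.5 to 60.0 and SPI1 from 2.66 to 24.1, while CD33 ranged from 67.6 to 73.7, CD68 from 164 to 182 and LYN from 439 to 452. Their part in the PTGER4 values was not tested.

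PTGER2, on chromosome 14 at 52314305-52328606, was low, with 2.51, 1.55 and 1.24 CPM in CEL, 2.21, 4.67 and 2.84 in CE, 2.50, 2.74 and 3.51 in LPS, and 2.33, 2.60 and 2.06 in NC. Every pair of groups overlapped, and it passed in 0 of the 6 comparisons in edgeR as set up here, and in 0 with DESeq2 or limma. The nearest were CEL against CE (-0.87 ± 0.32, edgeR adjusted p = 0.0728) and CEL against LPS (-0.72 ± 0.32, edgeR adjusted p = 0.0766). These 2 comparisons also had the only unadjusted p under 0.05, at 0.0195 and 0.0455. Both passed without CEL 1 and with no filter. CEL against LPS also passed with upper quartile factors (-0.85, adjusted p = 0.0374) and without CE 2 (adjusted p = 0.0344), and CEL against CE without CE 1 (adjusted p = 0.0493). The ranges of adjusted p over 21 alternatives were 0.0298 to 0.480 and 0.0166 to 0.346.

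On the leukotriene side, ALOX5AP, the FLAP gene on chromosome 13 at 30713478-30764426, had 204, 218 and 224 CPM in CEL, 281, 226 and 252 in CE, 176, 175 and 156 in LPS, and 11.3, 10.4 and 9.88 in NC. NC lay far below every other library, LPS came next, and CEL lay below CE with no overlap. ALOX5AP rose 16.1-fold in LPS against NC (4.01 ± 0.09, edgeR adjusted p = 2.53e-11, 3.96 to 4.08 within batches). It rose 1.49-fold in CE against LPS (0.58 ± 0.08, edgeR adjusted p = 9.84e-05, 0.36 to 0.69 within batches) and 1.27-fold in CEL against LPS (0.35 ± 0.08, edgeR adjusted p = 0.0031, 0.22 to 0.52 within batches). The last call was lost with upper quartile factors, with no filter and on log TPM (adjusted p 0.000375 to 0.0938 over 21 alternatives). CEL against CE did not pass (-0.23 ± 0.08, adjusted p = 0.0587), except without CE 2 or without LPS 3 (adjusted p 0.0056 to 0.757 over 21 alternatives).

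ALOX5, which oxygenates arachidonic acid, lies on chromosome 10 at 45374176-45446119. It had 4.93, 4.71 and 3.87 CPM in CEL, 8.47, 12.6 and 8.05 in CE, 3.49, 4.02 and 5.15 in LPS, and 1.87, 1.74 and 1.54 in NC. CE stood alone at the top, CEL and LPS overlapped in the middle, and NC was lowest. ALOX5 rose 2.45-fold in LPS against NC (1.29 ± 0.22, edgeR adjusted p = 0.000516, 0.90 to 1.74 within batches) and 2.30-fold in CE against LPS (1.20 ± 0.21, edgeR adjusted p = 0.000473, 0.64 to 1.65 within batches). It was 2.15-fold lower in CEL than in CE (-1.11 ± 0.20, edgeR adjusted p = 0.00249, -1.42 to -0.78 within batches). This was lost on log TPM only (adjusted p 6.24e-05 to 0.327 over 21 alternatives). CEL against LPS did not pass (0.09 ± 0.21, adjusted p = 0.726), and CEL remained 2.62-fold above NC. NCAM1, of the lymphocyte list, was also 3.52-fold higher in CE than in LPS and 2.86-fold lower in CEL than in CE, and its part in the ALOX5 values was not tested. An antisense gene within ALOX5 had at most 1 count in any group.

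LTA4H, the leukotriene A4 hydrolase on chromosome 12 at 96000828-96043520, ran the other way in the model. It had 52.9, 52.8 and 60.5 CPM in CEL, 68.6, 58.2 and 63.0 in CE, 50.7, 55.4 and 53.9 in LPS, and 71.6, 66.8 and 73.0 in NC. NC lay above CEL and LPS, while CE overlapped NC and lay above LPS. LTA4H fell in LPS to 1.32-fold below NC (-0.40 ± 0.08, edgeR adjusted p = 0.0013, -0.50 to -0.27 within batches), a call lost on log TPM. The 1.19-fold rise in CE against LPS (0.25 ± 0.08, edgeR adjusted p = 0.0204, 0.07 to 0.43 within batches) was lost in 15 of 21 alternatives (adjusted p 0.00377 to 0.511). These include RLE and upper quartile factors, DESeq2, and leaving out CEL 1, CEL 2, CE 1, CE 3, LPS 1, LPS 2 or NC 3. CE against NC did not pass (-0.16 ± 0.08, adjusted p = 0.0986), but passed with upper quartile factors, with library size alone and without CE 1 (adjusted p 0.000645 to 0.940 over 21 alternatives), whereas CEL was 1.27-fold below NC (-0.35 ± 0.08, edgeR adjusted p = 0.00186), a call lost on log TPM. CEL against LPS was 0.05 ± 0.08 (adjusted p = 0.582), and CEL against CE was -0.19 ± 0.08 (adjusted p = 0.101).

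LTC4S, the synthase of leukotriene C4 on chromosome 5 at 179793980-179796647, was near the detection limit. It had 0, 3 and 1 counts in CEL, 2, 2 and 0 in CE, 0, 0 and 2 in LPS, and 5, 6 and 3 in NC. Every NC library had at least as many counts as any treated library. Summed over each group, the ratio of LPS to NC was 0.142 with an exact 95% interval of 0.0156 to 0.617. The ratio of CE to NC was 0.293 (0.0703 to 0.934) and that of CEL to NC 0.294 (0.0705 to 0.937), intervals that cover counting error only. In the edgeR fit with no filter, LTC4S was not among the genes that passed in LPS, CE or CEL against NC. Between CE and LPS the ratio of 2.07 had an interval of 0.297 to 22.9.

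**Figure D4:**
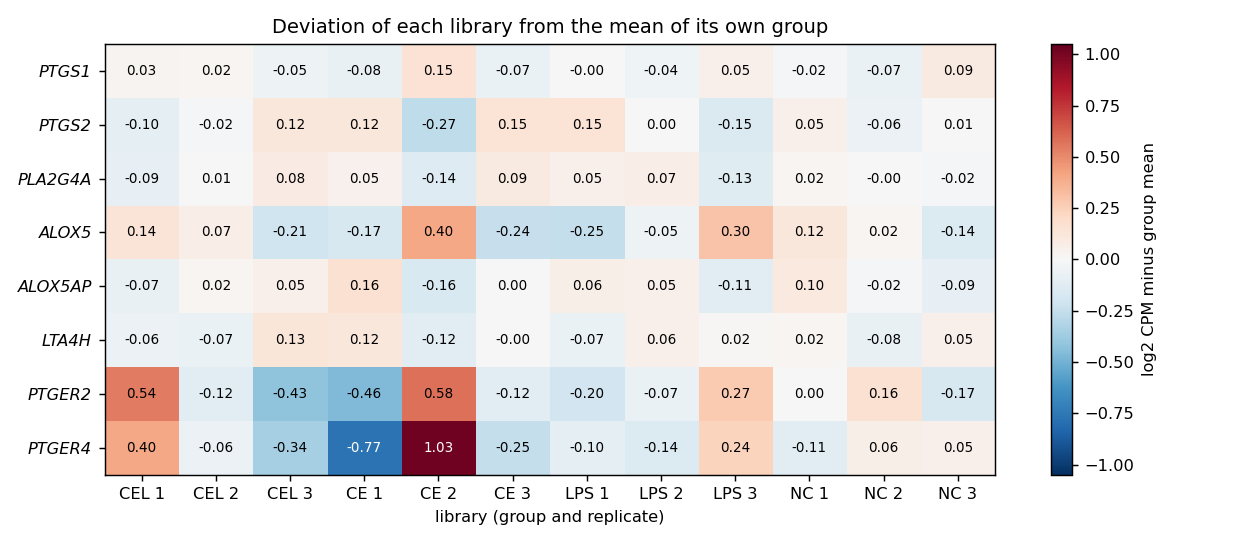
Deviation of each library from the mean of its own group, in log2 CPM, for the 8 tested genes (rows) and the 12 libraries (columns), with the value printed in each cell and red above and blue below the mean. The largest cells are PTGER4 in CE 2 at 1.03 and in CE 1 at -0.77, and the NC columns stay within -0.17 and 0.16.

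The genes split in how steady they were within a group. In CE 2, PTGER4, PTGER2, ALOX5 and PTGS1 lay above the CE mean by 1.03, 0.58, 0.40 and 0.15 log2 units, while PTGS2, ALOX5AP, PLA2G4A and LTA4H deviated by -0.27, -0.16, -0.14 and -0.12. CEL 1 was high for PTGER2 and PTGER4, by 0.54 and 0.40, and CEL 3 was low for both, at -0.43 and -0.34. Among 7460 genes whose log2 CPM averaged 3 or more, those whose centred profile over the 12 libraries was close to that of PTGER4 included IGF2R and RTN4 (root mean square differences of 0.11 and 0.14 log2 units). IGF2R, a receptor for lysosomal enzymes, had 80.4, 262 and 116 CPM in CE and 70.1, 80.7 and 75.6 in NC. RTN4, a membrane protein of the endoplasmic reticulum, had 17.2, 63.6 and 21.4 CPM in CE.

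By the same measure the nearest genes to PTGS1 were CTSS, SLC11A2 and NFIL3 (0.12, 0.13 and 0.13), and to PTGS2 GPR183, EPB41L3 and ENSG00000289470 (0.21, 0.23 and 0.25). For ALOX5AP they were IFIH1, NRP1 and IFITM1 (0.08, 0.19 and 0.20), and for ALOX5 PNPLA1, TUBGCP2 and TGIF1 (0.21, 0.25 and 0.30). For LTA4H they were RPL11, ACAT2 and RPL37A (0.05, 0.06 and 0.06), for PLA2G4A USO1, STYX and RABGAP1L (0.04 each), and for PTGER2 RNF135, SKA1 and FKBP9 (0.17, 0.18 and 0.18).

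Around these genes, 71 others of the pathway were listed by role, and 31 had enough counts to test. In LPS against NC, 8 rose, 10 fell and 13 did not pass, so that 18 of 31 changed beside 45.9% of all tested genes. In CE against LPS, 9 rose and 6 fell, 15 of 31 beside 49.6%. In CEL against CE 2 rose and 7 fell, 9 of 31 beside 23.6%. The counts by role that follow rest on 3 to 10 tested genes each and stand beside the same shares, 22.4% rising and 23.5% falling over all genes in LPS against NC, and 28.8% rising and 20.7% falling in CE against LPS. The median log2 change of the 31 was 0.16 for LPS against NC, -0.06 for CE against LPS and -0.20 for CEL against CE, beside -0.01, 0.08 and -0.09 over all tested genes. All 7 other prostanoid receptors were too low to test.

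Of the phospholipases A2, 4 of 18 were tested, and 2 rose and 1 fell in LPS against NC. PLA2G7, which breaks down platelet-activating factor, had 372 counts in LPS and 0 in NC, at least 123-fold higher (floor of 3 counts over the group). It was 11.1-fold lower in CE than in LPS, at 0.518 and 5.83 CPM. PLA2G4C, a calcium-independent cytosolic form, averaged 13.1 CPM in LPS and 1.52 in NC and rose 8.58-fold (edgeR adjusted p = 4.05e-10). Of 10 genes of arachidonate supply and reacylation, 3 rose and 3 fell in LPS against NC, and 4 rose and 1 fell in CE against LPS. ACSL1 and ACSL4, which activate fatty acids with coenzyme A, rose 4.33-fold and 2.61-fold in LPS. FADS1, a desaturase on the route to arachidonic acid, was 1.45-fold lower in LPS than in NC and 1.47-fold higher in CE than in LPS. LPCAT3, which puts arachidonic acid back into phospholipids, was 1.67-fold lower in LPS than in NC. The falls of FADS1 and LPCAT3 in LPS did not pass on log TPM.

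Among the other prostanoid synthases, 5 of 9 were tested, with 2 rising in LPS against NC and 3 falling in CE against LPS. TBXAS1, thromboxane synthase, averaged 17.4 CPM in LPS and 3.89 in NC and rose 4.47-fold (edgeR adjusted p = 1.25e-08). AKR1C3, which makes prostaglandin F2 compounds, rose 2.48-fold in LPS against NC. It was then 1.74-fold lower in CE than in LPS and 1.87-fold lower in CEL than in CE, the last not on log TPM. CBR1, a carbonyl reductase that acts on prostaglandins, was 3.14-fold lower in CE than in LPS. Of the other lipoxygenases and leukotriene enzymes, 3 of 12 were tested, and 2 fell in LPS against NC. MGST3, which can conjugate leukotriene A4 with glutathione, was 1.60-fold lower in LPS than in NC and 1.74-fold higher in CE than in LPS.

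The leukotriene receptors had 3 of 5 genes tested, with 1 rising and 1 falling in LPS against NC and 2 rising in CE against LPS. CYSLTR1, the cysteinyl leukotriene receptor, averaged 54.1 CPM in CEL, 48.8 in CE, 15.9 in LPS and 44.0 in NC. It was 2.78-fold lower in LPS than in NC (edgeR adjusted p = 8.51e-08) and 3.07-fold higher in CE than in LPS (edgeR adjusted p = 5.95e-08). CYSLTR2, the other cysteinyl leukotriene receptor, was 3.81-fold higher in CE than in LPS, at 1.92 and 0.500 CPM. It also rose 1.97-fold in LPS against NC (edgeR adjusted p = 0.047), a call lost with the replicate block (adjusted p = 0.0508, 0.0393 to 0.746 over the alternatives), with DESeq2 and without any 1 of the LPS or NC libraries, CEL 1, CEL 2, CE 1 or CE 3. Of the transport and breakdown genes, 6 of 10 were tested, and 3 fell and 0 rose in LPS against NC. EPHX2, soluble epoxide hydrolase, was 3.86-fold lower in LPS than in NC (edgeR adjusted p = 7.97e-05). In CE against LPS 1 of this list rose and 1 fell. PTGR2, which reduces 15-keto prostaglandins, was 1.89-fold lower in CE than in LPS, while PTGR1 was 1.47-fold higher (edgeR adjusted p = 0.000143).

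**Figure D5:**
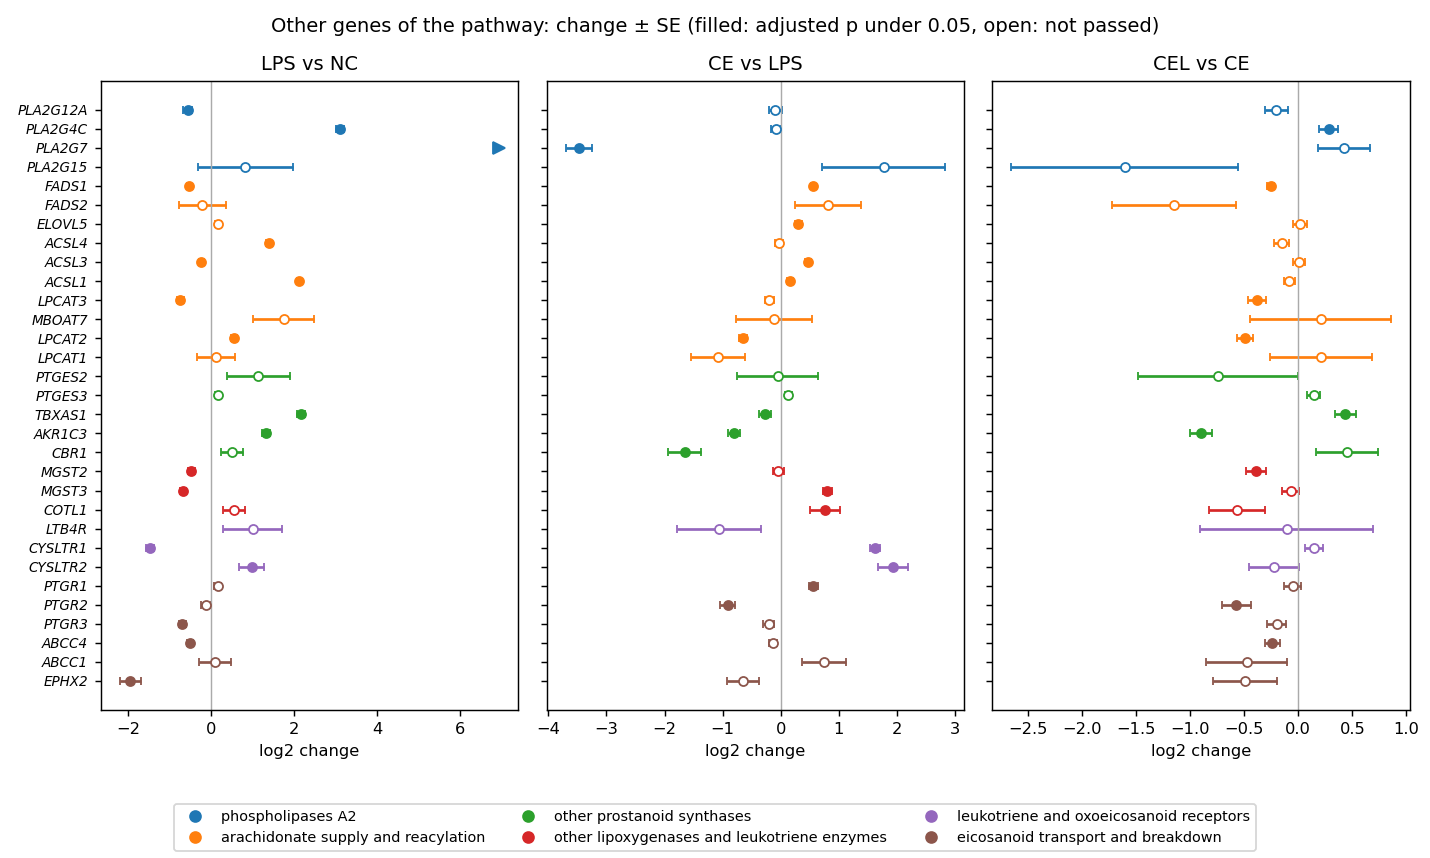
Log2 change ± SE of the 31 other tested pathway genes for LPS against NC, CE against LPS and CEL against CE, coloured by list, with filled points past the test and a separate horizontal scale in each panel. The triangle for PLA2G7 marks a lower bound of 6.94 because NC had 0 counts, and CYSLTR1 and FADS1 lie left of zero in the first panel and right of it in the second. Both of these panels use the LPS libraries.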

How the data were processed

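The authors deposited one table of estimated counts, one of TPM and one of FPKM, each for the same genes. The deposited counts are not scaled, and 29.3% of the nonzero values are not whole (tolerance 0.005). The deposited TPM are counts per length scaled to a fixed total per library. The FPKM were not used. The submitters' processing notes name hg38 as the build, while no aligner, counting tool or strand setting is given in the sources used here. Per the labels' protocols, mRNA was captured on oligo-dT beads. Columns were matched to groups by name. Those of CE, named only as treated, were matched as the remaining group, and every CE value rests on this.

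Counts were rounded, filtered with filterByExpr (minimum 10, total 15), scaled with TMM and fitted in edgeR 4.0.16 (R 4.3.3) with group as the only term over all 12 libraries, with two-sided quasi-likelihood F-tests adjusted by Benjamini-Hochberg over 14065 genes. The common dispersion was 0.0405, a variation of 20.1% between libraries beyond counting noise. The residual and prior degrees of freedom were 8 and 2.93. The approximate SE is the size of the log2 change over the square root of F. The scripts were tested on simulated data. Alternatives were RLE, upper quartile and library size scaling, no filter, DESeq2 1.42.0, limma 3.58.1 on log2(TPM + 1) and log2(TPM + 0.1), a replicate block, each library left out, and, added after seeing the data, NC 3 and LPS 1 left out together. The text names every gene asked for. From each pathway list it draws on up to 4 passing genes with the smallest p in LPS against NC and up to 2 in each of CE against LPS and CEL against CE, plus the 3 nearest profiles, of which 1 is not reported here. PTGES3, TTC33, PACERR, CSF1R and the other marker genes were named after their values were seen. The genes and lists were chosen with earlier results of these data known. Motif letters and gene neighbours came from RefSeq and GENCODE 29.

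Each library's batch label repeats its replicate number, so the labels pair the libraries. Of 18 same-numbered pairs, 6 had deviations from group means that correlated above 0.1 over 7460 genes (range -0.86 to 0.73), and 1 library correlated best with its own number. Replicates differed by more than sampling noise (chi-square per degree of freedom 3.17 to 125), so none was counted as a repeat. The labels do not say that libraries came from separate cultures, so the spread behind each p-value may be technical. Intervals and floors cover counting error only.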

Additional observations from a re-analysis of the deposited data

How the results depend on the processing

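All counts of changed genes in the 8 eicosanoid genes stayed within 1.5 times under the alternatives for LPS against NC, CE against LPS, CE against NC and CEL against NC. No called gene changed sign. For CEL against LPS (4 genes changed) the count was 1 with limma on log2(TPM + 1), 1 with log2(TPM + 0.1), and 2 without NC 3 and LPS 1 together. For CEL against CE (1 changed) it was 2 with RLE, upper quartile, no filter, DESeq2, or NC 3 and LPS 1 left out, 0 with either limma fit, and 1 to 5 when 1 library was left out. Over all tested genes, limma on log2(TPM + 1) and on log2(TPM + 0.1) called 2963 and 2951 for LPS against NC (6458 in edgeR), 3586 and 3545 for CE against LPS (6972), 4984 and 4978 for CEL against LPS (7867), and 266 and 225 for CEL against CE (3321). Without NC 3 and LPS 1 the counts were 4305 for LPS against NC and 2096 for CEL against CE, and leaving out 1 library gave 2120 to 4066 for CEL against CE. Signs of values that passed in neither fit turned with upper quartile factors for PLA2G4A in LPS against NC (-0.0030), PTGER2 (-0.037) and PTGER4 (-0.014) in CE against LPS, and ALOX5 (-0.042) and LTA4H (-0.082) in CEL against LPS. They turned with library size alone for PTGER2 (-0.0027), ALOX5 (-0.023) and LTA4H (-0.061) in the same comparisons. With no filter they turned for ALOX5 (-0.0061) and LTA4H (-0.040) in CEL against LPS. The limma fits gave -0.036 and -0.046 for PTGER4 in CE against LPS, and leaving out NC 3 and LPS 1 gave -0.0046 for PTGER2 in CE against LPS and -0.034 for ALOX5 in CEL against LPS. The cause of these shifts was not tested.

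With 1 library left out, CE against LPS ran from -0.20 to 0.32 for PTGER2 and from -0.50 to 0.45 for PTGER4, both lowest without CE 2. CEL against LPS ran from -0.025 to 0.27 for ALOX5 and from -0.012 to 0.13 for LTA4H. CEL against CE ran from -0.16 to 0.029 for PLA2G4A and from -0.16 to 0.74 for PTGER4, which passed without CE 2. The replicate block gave 5992 changed genes for LPS against NC, 6558 for CE against LPS, 7537 for CEL against LPS and 2803 for CEL against CE. It changed the call of 1 of the 8 genes, PTGER4 in CEL against NC, and of no other of the 8. Depth limits PTGES and LTC4S, which were tested only in the setting with no filter.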
